A study of Mus musculus with 12 samples.

Results

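Neurotransmitter receptor subunits are the building blocks of the proteins through which cells respond to GABA, glycine, glutamate and acetylcholine. The genes described here were chosen by symbol from the protein-coding rows of the expression table. The rule used no measured value but was set with earlier results of these data known. It covers the subunits of GABA-A, GABA-B and glycine receptors and of AMPA, kainate and NMDA glutamate receptors. Metabotropic glutamate receptors and the nicotinic and muscarinic acetylcholine receptors are covered too. The rule found 68 genes of the 30399 in the table, in 9 families. Chrna6, Gabra6 and Glra4 also meet the rule and were not analysed here.

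The study profiled tumors of a mouse lung cancer model made by CRISPR/Cas9 mutagenesis without viral delivery, beside normal mouse lung, by poly-A RNA sequencing of bulk tissue. The labels divide the 12 samples by tissue alone into 5 normal lungs and 7 tumors. The labels name no strain, age, sex, targeted gene, delivery vehicle or time for either group, and do not say whether the tumors came from separate animals. Titles carry a number, which tumors 3 and 4 share (159), as do tumors 5, 6 and 7 (201), so the 7 tumors carry 4 numbers. Titles of tumors 1 and 7 also hold a Spanish word for trachea, and those of normal lung 5 and tumors 3, 4, 5 and 6 a word for lung. P-values therefore measure the spread between these samples, some of which may share an animal.

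Most of these receptors are ligand-gated ion channels assembled from several subunits, and the subunits present set which transmitter a channel answers to and which ions pass. GABA-B, metabotropic glutamate and muscarinic receptors are instead coupled to G proteins. In lung, muscarinic receptors on airway smooth muscle drive constriction and the GABA-A pi subunit marks epithelium, whereas neuroendocrine cells and the tumors that resemble them are known to express neuronal channels, among them the nicotinic subunits encoded beside each other by Chrna5, Chrna3 and Chrnb4. Many neuronal genes carry RE1, an element bound by REST, a repressor that is active in non-neuronal cells.

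The letters just upstream of the gene start are shown first for 6 receptor genes to which the results return. Gria2, Grm2, Glrb and Grin1 were among the genes higher in tumor, and Gabrp and Chrnb1 had the largest decreases. Each line gives the 250 bases before the RefSeq start in the direction of the gene, on build GRCm38.p6, which is not the build of the expression table. Capitals mark either arm of the RE1 core, AGCACC or GGACAG, on either strand. The 6 genes do not stand for all members. Neither arm was found upstream of Gria4, Grik3, Chrna3 or Chrnb2, which were called higher, while Chrna9, called lower, held AGCACC.
Gria2 (GRCm38.p6, chr3:80802836-80803085, minus strand): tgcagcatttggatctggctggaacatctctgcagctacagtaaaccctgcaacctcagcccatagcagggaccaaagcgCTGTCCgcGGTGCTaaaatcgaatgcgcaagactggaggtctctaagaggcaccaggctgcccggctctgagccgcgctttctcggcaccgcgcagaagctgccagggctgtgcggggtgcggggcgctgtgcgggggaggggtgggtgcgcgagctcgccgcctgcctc
Grm2 (GRCm38.p6, chr9:106656110-106656359, minus strand): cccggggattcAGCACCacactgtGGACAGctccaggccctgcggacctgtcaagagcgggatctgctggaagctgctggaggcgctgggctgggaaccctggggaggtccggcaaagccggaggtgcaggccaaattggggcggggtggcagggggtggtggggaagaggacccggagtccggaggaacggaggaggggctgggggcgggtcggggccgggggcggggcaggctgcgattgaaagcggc
Glrb (GRCm38.p6, chr3:80913661-80913910, minus strand): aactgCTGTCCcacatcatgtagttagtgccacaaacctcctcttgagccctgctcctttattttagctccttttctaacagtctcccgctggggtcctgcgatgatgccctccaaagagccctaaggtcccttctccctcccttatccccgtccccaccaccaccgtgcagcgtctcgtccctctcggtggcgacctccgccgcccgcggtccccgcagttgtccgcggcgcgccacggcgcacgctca
Grin1 (GRCm38.p6, chr2:25319188-25319437, minus strand): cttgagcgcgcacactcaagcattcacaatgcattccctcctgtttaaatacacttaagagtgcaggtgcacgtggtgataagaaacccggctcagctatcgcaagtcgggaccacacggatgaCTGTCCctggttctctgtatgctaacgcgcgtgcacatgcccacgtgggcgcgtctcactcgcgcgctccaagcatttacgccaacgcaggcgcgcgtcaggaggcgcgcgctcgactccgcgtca
Gabrp (GRCm38.p6, chr11:33578958-33579207, minus strand): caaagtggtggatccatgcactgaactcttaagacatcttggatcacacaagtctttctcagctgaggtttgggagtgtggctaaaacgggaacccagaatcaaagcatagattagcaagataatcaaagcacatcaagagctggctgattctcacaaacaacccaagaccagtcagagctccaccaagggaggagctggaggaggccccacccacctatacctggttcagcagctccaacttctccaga
Chrnb1 (GRCm38.p6, chr11:69795938-69796187, minus strand): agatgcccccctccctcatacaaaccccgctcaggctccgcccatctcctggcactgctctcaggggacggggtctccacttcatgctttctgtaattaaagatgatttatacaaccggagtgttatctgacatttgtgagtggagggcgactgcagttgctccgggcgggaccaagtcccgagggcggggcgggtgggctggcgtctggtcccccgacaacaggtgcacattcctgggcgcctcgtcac

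Both arms stood in RE1 order, 2 bases apart, upstream of Gria2 alone. Read on the strand opposite to the gene they spell the core AGCACCNNGGACAG, and they lay 170 to 165 and 162 to 157 bases before the start. Of the 68 genes, 50 had a RefSeq promoter window, which ran from 250 bases before to 50 bases after the start. Among these 50, 28 were called higher, 6 lower and 15 not. Most carriers of any letters would thus be genes called higher, and the splits of matches by call given below were not tested. Only the 250 bases before the start were searched, on both strands, and the core occurred there in 15 of 32851 windows (0.0457%). The arm GGACAG was found in 20 of the 50 members, of which 15 were called higher and 0 lower, against 18.7% of all windows. Here and below a member counted if any of its windows matched, whereas the share is per single window. Member counts and shares are therefore unlike measures and cannot be read as an excess. The arm AGCACC was found in 9 members, of which 6 were called higher and 1 lower (Chrna9), against 13.4% of all windows. The E-box letters CAGCTG occurred in 7 members, 2 called higher and 3 called lower, against 13% of all windows. Upstream of Grm2 the arms lay 239 to 234 and 226 to 221 bases before the start on the strand of the gene, with a wider gap than the core. Upstream windows of genes called higher were also richer in CG dinucleotides, with a median of 11.5 (n = 28) against 4 in those called lower (n = 6), 10 in those not called (n = 15) and 6 over all windows, and their median GC content was 62.2% against 50.4%, 60.4% and 52.4%. A match describes letters only, and the windows were not compared by a test.

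Receptor genes were more often higher in tumor than lower. Values are the deposited normalized read counts, that is reads divided by a size factor for each sample, and differences are log2 fold changes on the log2(value + 1) scale, which understates changes of genes with low values and, for a gene at 0 in a group, depends on the added 1 and is no bound. Of the 68 genes, 65 passed the filter on low values and were tested, and 3 were not, among them Chrm5 and Chrnb3. With limma and Benjamini-Hochberg adjustment over all 23674 genes tested, 36 receptor genes were called higher in tumor, which is 52.9% of the 68, against 24.0% of all genes tested. Only 7 were called lower, which is 10.3% of the 68, against 24.5% of all genes tested. A gene near 0 in normal lung cannot be called lower, so part of this gap was fixed in advance. The all-gene share of lower calls was not split by normal lung level. To be called, a gene needed an adjusted p below 0.05 and a change of at least 1 on the log2 scale. The remaining 22 tested genes were not called, and over all genes tested 48.5% were called in either direction. Of the receptor genes limma called, edgeR on the recovered reads of 11 samples also called 30 of the 30 higher ones it tested and 4 of the 7 lower. DESeq2 called 36 of 36 and 6 of 7. These genes were already chosen by limma on largely the same samples, so the counts cannot be set beside shares over all genes. Those shares were 25.2% higher and 20.5% lower by edgeR, and 23.3% and 19.5% by DESeq2. In 26 genes every tumor lay above every normal lung, against 20.1% of all genes tested, in 4 every tumor lay below, against 18.4%, and in 38 the groups overlapped.

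Many of these genes were near silent in normal lung. In 22 of the 68 no normal lung had more than 3 reads, and in 8 all normal lungs were at 0. A gene that passes the filter through its tumor values has to differ, and of the 14 tested members with a normal lung mean under 1, 13 were called higher, against 71.8% of all such genes. Among the 51 tested members with a normal lung mean of at least 1, 23 were called higher, against 19.9%. The median log2 fold change over the 65 tested genes was 2.26, against 0.04 over all genes tested. For genes with at most 3 reads in every normal lung, a bound was also taken. It was the log2 ratio of the tumor mean to the worth of 3 reads in the shallowest normal lung, and no less than 0. With this bound the median was 1.55, which has no counterpart over all genes. Of the 36 genes called higher, 28 kept the call under every alternative in which they were tested, and of the 7 called lower, 3 did, namely Gabrp, Chrna9 and Chrnb1.

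**Figure D1:**
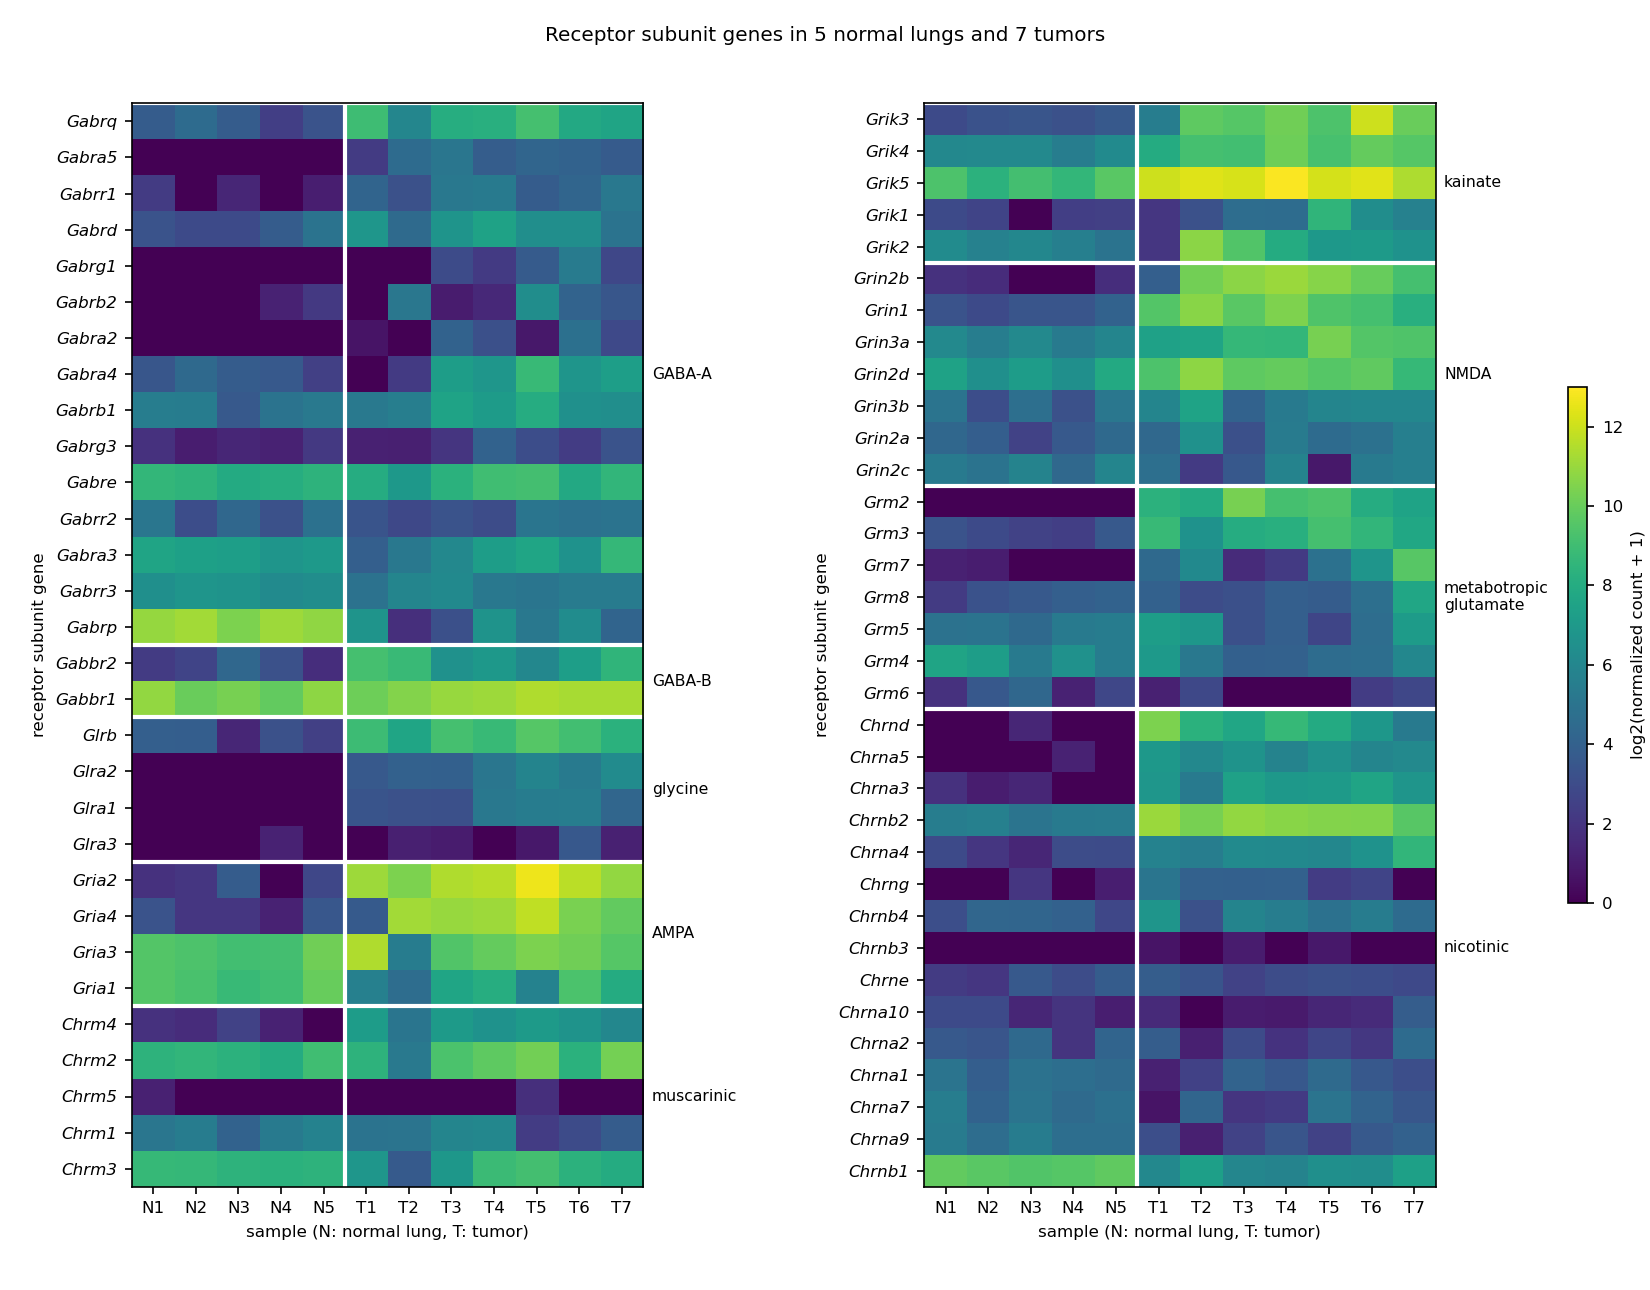
Each row is 1 of 64 receptor genes of the 68, each column 1 sample (N1 to N5 normal lungs, T1 to T7 tumors), and colour is log2(normalized count + 1), with genes grouped by family and ordered by fold change within it. In most families the upper rows are dark in all 5 normal lungs and bright in the tumors, while Gabrp and Chrnb1 at the foot of their families show the opposite.

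**Figure D2:**
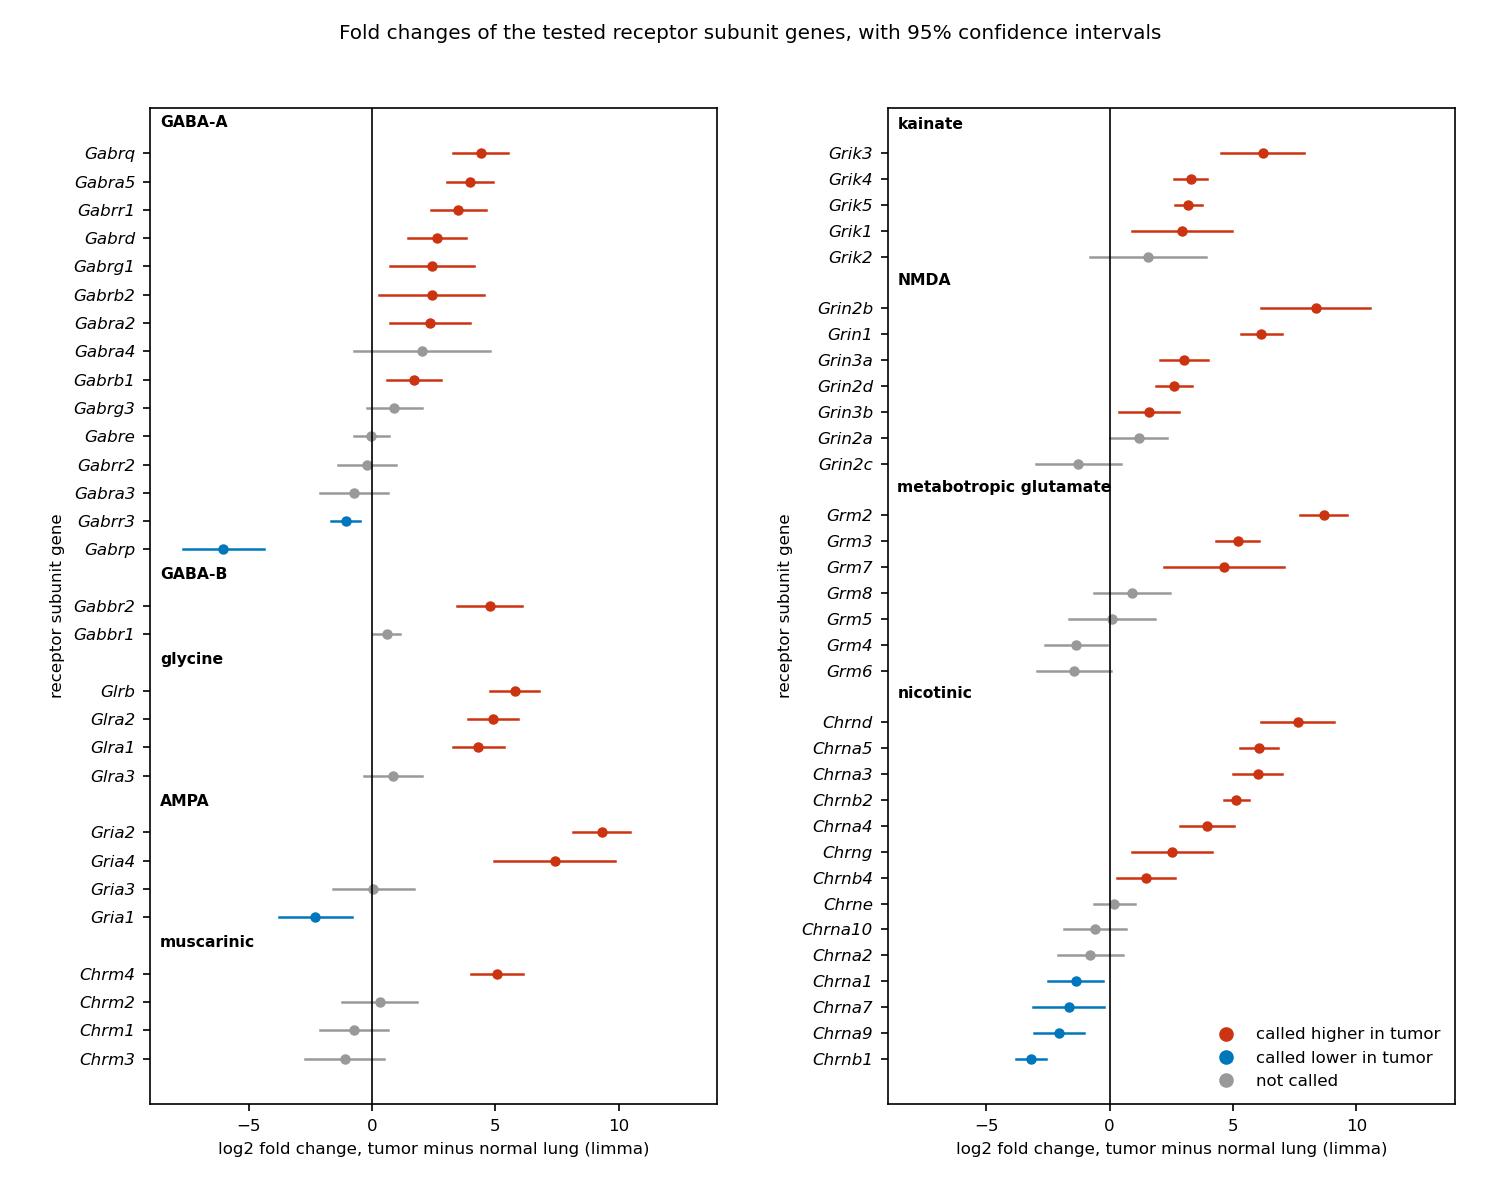
Points give the log2 fold change of tumor over normal lung for 62 of the 65 tested receptor genes and lines the 95% confidence interval from limma, coloured by call. The genes drawn reach 9.31 for Gria2 among those called higher, and the 7 called lower reach -6.03 for Gabrp.

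Depth ran from 11126432 to 17032234 reads in normal lung and from 13093843 to 24217633 in tumor, so that 3 reads are worth at most 4.85 in normal lung and at most 3.57 in tumor. Below these floors, which cover counting error only, values are not ranked. Markers of other cell types moved with the groups. The summed normalized count of 10 lung epithelial markers was 338411 to 557486 in normal lung and 273 to 3668 in tumor. That of 8 endothelial markers was 67491 to 77976 and 2591 to 7484, and that of 7 leukocyte markers 84699 to 164662 and 379 to 12633. Lyz2 made up most of the leukocyte sum in normal lung (78689 to 157579). Lyz2 and Cd79a lay below every normal lung in every tumor. In tumor 7, however, Ptprc (3291) lay above every normal lung (1988 to 3120), and Cd3e (248) and Cd68 (1419) lay within the normal range. The sum of 10 neuroendocrine markers was 202 to 256 in normal lung and 33230 to 130171 in tumor, with Dcx at 0 in all normal lungs. The 8 peripheral neuron markers summed to 830 to 1859 and 3130 to 7861, and 4 of them lay higher in every tumor than in any normal lung, among them Snap25 (means of 5.59 and 3100), Prph (12.8 and 935) and Th (0 and 285). Of the other peripheral neuron markers, Hand2 was at most 6.40 and Dbh at most 7.04 in tumor, and Stmn2 was at 6.33 to 222 in tumor against 792 to 1847 in normal lung. Y-linked genes were high in 4 of the 5 normal lungs and 1 of the 7 tumors. In bulk tissue, fewer cells of a type and less RNA per cell cannot be told apart, and the part of these markers in the receptor results was not tested.

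GABA-A receptors are chloride channels built from several subunits. Of the 18 genes of the family, 10 were called higher in tumor, 2 lower and 5 not, and 1 was not tested. The family shares were 55.6% higher and 11.1% lower, beside 24.0% and 24.5% of all genes tested. Gabrp, which encodes the pi subunit of epithelia, was the leading gene of the family in normal lung and fell in tumor. Its values were 1944, 2332, 1383, 2174 and 1812 in normal lungs 1 to 5 and were 104, 2.38, 7.93, 99.7, 36.4, 79.5 and 17.3 in tumors 1 to 7. No tumor reached the normal lungs, and tumor 2 was at 2 reads. The log2 fold change was -6.03 (SE 0.76, adjusted p = 1.57e-05), beside the lung epithelial marker sum given above, which also lay lower in every tumor. Gabrr3, a rho subunit, was also called lower, at 87.7, 109.7, 100.1, 74.8 and 81.6 in normal lungs 1 to 5 and at 28.5, 58.4, 71.4, 35.9, 32.4, 41.8 and 40.99 in tumors 1 to 7 (log2 fold change -1.07, SE 0.28, adjusted p = 0.00433). This call sat close to the fold change limit and was lost without tumor 1 (-0.98), without the trachea-titled tumors (-0.96), and also with quantile normalization (-0.89) and with equal totals (-0.87).

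Levels per kb of exon allow subunits to be set against each other. Gabrp made up 79.1% of the summed GABA-A level per kb in normal lung (range 75.6% to 84.7%), and its mean level went from 571 per kb in normal lung to 14.7 in tumor. Gabre, the epsilon subunit, was at 67.3 and 71.97 per kb in the mean, and the normalized counts of the tissues overlapped (245 to 386 and 122 to 557, log2 fold change -0.03, 95% interval -0.74 to 0.67).

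A GABA-A channel usually also holds alpha subunits, which contribute to the GABA site, and a gamma, delta, epsilon or theta subunit. Among the alpha genes, Gabra3 was at 109 to 192 in normal lung and 14.6 to 404 in tumor and was not called. Gabra5 was at 0 in all normal lungs and at 3.799 to 33.7 in tumor, a mean at least 3.53-fold above the floor of 3 reads in the shallowest normal lung. Gabra2 was at 0 in normal lung and at 0 to 27.0 in tumor. Gabra4 was at 4.60 to 20.4 in normal lung, at 0 in tumor 1 and 3.57 in tumor 2, and at 111 to 429.5 in the other tumors, and it was called higher without tumor 1 (2.95, adjusted p = 0.0139), without the trachea-titled tumors, by edgeR and by DESeq2. Per kb, the tumor means of these genes were 35.2 for Gabra3, 22.5 for Gabra4 and 5.75 for Gabra5.

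Of the remaining members, Gabrq (theta) rose from 12.4 to 304 in the mean, or from 2.31 to 56.7 per kb, with groups apart, and Gabrd (delta) from 12.9 to 88.2 with overlap between tumor 2 and normal lung 5. Gabrr1, another rho subunit, was at 0 to 3.87 and 8.34 to 39.5 and was called higher. Gabrb1 was called higher (log2 fold change 1.69, adjusted p = 0.0103), but not with Y-linked expression as a covariate (adjusted p = 0.0523) or with tumors of 1 title number averaged (0.0522). The calls of Gabra2 and Gabrg1, both at 0 in normal lung and at most 41.8 in tumor, were likewise lost with the covariate, and that of Gabrg1 also with averaged title numbers (adjusted p = 0.0891). Gabrb2 reached 83.3 in tumor 5 and was at 0 in tumor 1, and its call (adjusted p = 0.0494) was lost on leaving out any of normal lungs 1, 2, 3 and 4 or tumors 2, 5, 6 and 7 (adjusted p 0.0655 to 0.1005). It was also lost with title number as a correlated block (0.0744), with averaged title numbers (0.102), with the Y-linked covariate (0.405), with quantile normalization and with either other filter. Gabrg3 and Gabrr2 were not called.

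GABA-B receptors pair a GABA-binding subunit, Gabbr1, with a subunit that couples to G proteins, Gabbr2. Gabbr1 was present in both tissues, at 1929, 1061, 1287, 928 and 1744 in normal lungs 1 to 5 and 1133 to 2763 with a median of 2185 in tumor, and was not called (log2 fold change 0.60, 95% interval 0.06 to 1.13, adjusted p = 0.0518). Gabbr2 was at 3.87, 5.38, 19.4, 8.46 and 2.30 in normal lungs 1 to 5 and at 581, 451, 95.2, 122, 63.9, 156 and 362 in tumors 1 to 7. Every tumor lay above every normal lung, with the highest values in tumors 1, 2 and 7 (log2 fold change 4.77, SE 0.61, adjusted p = 1.65e-05). Per kb, Gabbr2 made up 0.75% of the pair in normal lung and 13.9% in tumor, with a range of 2.62% to 37.3% among tumors.

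Glycine receptors are chloride channels of ligand-binding alpha subunits and the anchoring beta subunit Glrb, and 3 of the 4 genes rose. That is 75.0% called higher, with 0 lower, beside 24.0% and 24.5% of all genes tested. Glrb went from 14.2, 13.98, 1.62, 8.46 and 4.60 in normal lungs 1 to 5 to values from 195 to 752 with a median of 473 in tumor. The groups were far apart (log2 fold change 5.78, SE 0.46, adjusted p = 1.93e-07). Glra1 and Glra2 were at 0 in all normal lungs and present in all tumors, at 7.93 to 43.8 and 11.4 to 74.9, with means at least 4.92-fold and 7.28-fold above the floor of 3 reads. Glra3 exceeded 3 reads in tumor 6 alone (10.8) and was not called. Per kb, Glrb held 82.4% of the family in tumor, Glra2 9.63% and Glra1 7.79%.

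AMPA receptors carry fast glutamate transmission as tetramers of Gria1 to Gria4 products, and the edited product of Gria2 keeps calcium out of the channel. The summed AMPA level per kb of exon was 127 to 286 in normal lung and 389 to 1118 in tumor, and different subunits led it. Gria2 was at 2.58, 3.23, 12.9, 0 and 5.75 in normal lungs 1 to 5 and ran from 1385 to 6543 with a median of 2797 in tumor (log2 fold change 9.31, SE 0.54, adjusted p = 1.14e-08). All 7 tumors lay far above the highest normal lung. Gria4 was at 9.03, 3.23, 3.23, 1.41 and 10.3 in normal lung and at 12.03, 2362, 2028, 2159, 3457, 1317 and 936 in tumors 1 to 7. Tumor 1 was thus close to the highest normal lung, while the other 6 tumors were at 936 or more. The log2 fold change was 7.40 (SE 1.14, adjusted p = 8.36e-05) and 8.43 without tumor 1.

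Gria1 and Gria3 were the AMPA genes of normal lung. Gria1 was at 731, 620.4, 431, 519 and 1012 in normal lungs 1 to 5 and at 49.4, 23.8, 197, 274, 52.6, 647 and 257 in tumors 1 to 7, so that tumor 6 fell within the normal range and the other tumors lay below it. It was called lower (log2 fold change -2.29, SE 0.69, adjusted p = 0.0105), but not by edgeR, whose adjusted p was 0.0804. Gria3 was at 733, 658, 538, 549 and 1149.6 and at 2799, 42.9, 703, 969.9, 1386, 1176 and 755. Its tumors lay on both sides of the normal lungs, with tumors 1, 5 and 6 above and tumor 2 below all of them, and it was not called (log2 fold change 0.05, 95% interval -1.58 to 1.69), with a sign that turned to -0.35 without the trachea-titled tumors. Per kb, Gria1 and Gria3 made up 59.4% and 40.0% of the family in normal lung. In tumor, Gria4 made up 43.2%, Gria2 30.2%, Gria3 20.4% and Gria1 6.16%, with Gria4 ranging from 0.44% to 79.4% among tumors.

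**Figure D3:**
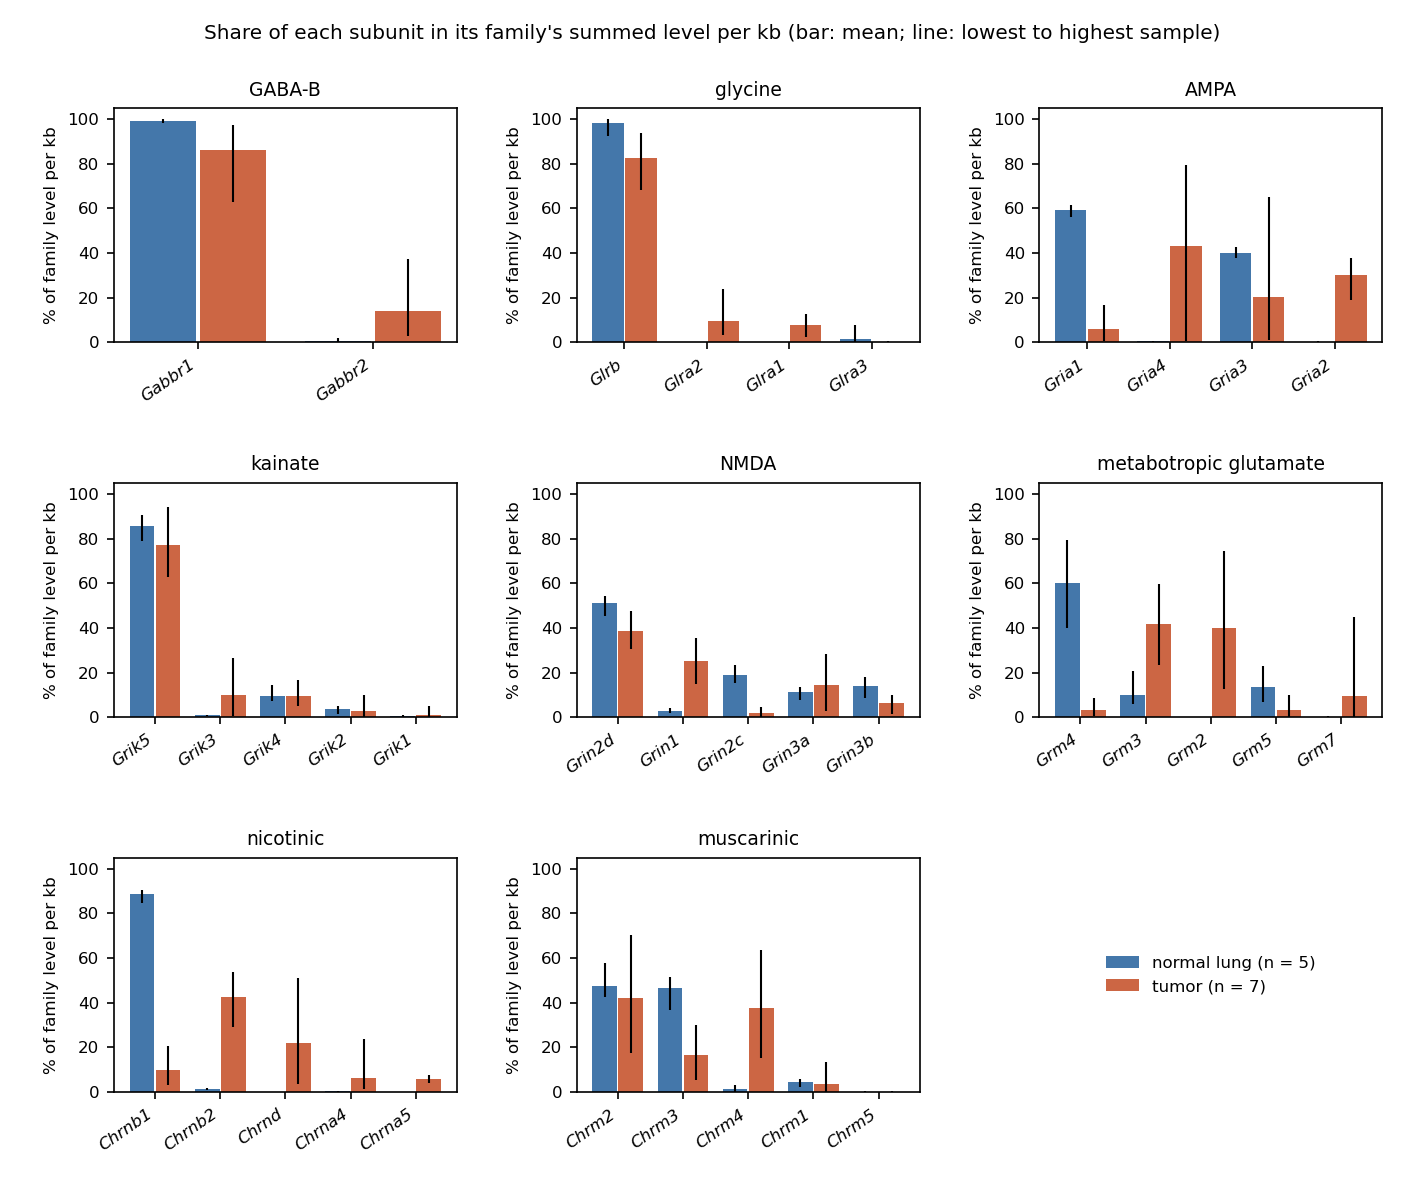
Bars give the mean share of each subunit in its family's summed level per kb of exon, in percent, for 5 normal lungs (blue) and 7 tumors (orange), with lines from the lowest to the highest sample for 8 families and up to 5 subunits a family. Gria1, Chrnb1 and Grm4 lead in normal lung at 59.4%, 88.7% and 60.3% and hold 6.16%, 9.99% and 3.23% in tumor, whereas Gabbr1, Glrb, Grik5 and Grin2d lead in both.

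Kainate receptors modulate transmission and combine Grik1 to Grik3 subunits with the high-affinity subunits Grik4 and Grik5. Of the 5 genes, 4 were called higher in tumor (80.0%) and 0 lower, beside 24.0% and 24.5% of all genes tested. Grik5 was the leading kainate gene of both tissues, at 656, 331, 544, 395 and 812 in normal lungs 1 to 5 and from 2724 to 7896 with a median of 4719 in tumor. The lowest tumor exceeded the highest normal lung (log2 fold change 3.20, SE 0.26, adjusted p = 2.65e-07). Grik4 rose too, from 64.5 to 688 in the mean with groups apart. Grik3 was at 6.45, 8.601, 9.69, 8.46 and 11.5 in normal lung and 44.9, 880.4, 761, 1161, 671, 4064 and 1029.8 in tumors 1 to 7. Tumor 1 was the lowest and tumor 6 the highest, and the log2 fold change was 6.20 (SE 0.78, adjusted p = 1.49e-05) and 6.86 without tumor 1.

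The other kainate genes varied among the tumors. Grik1 was at 0 to 6.45 in normal lung and reached 365 in tumor 5, and its call (log2 fold change 2.93, adjusted p = 0.0154) was lost with the Y-linked covariate (0.110) and with averaged title numbers (0.0791). Grik2 was at 29.9 to 77.4 in normal lung, 3.17 in tumor 1 and 97.3 to 1720.2 in the other 6 tumors, all of them above the normal lungs. It was not called with all samples and was called higher without tumor 1 (2.42, adjusted p = 0.00735), without the trachea-titled tumors, by edgeR and by DESeq2. Per kb, Grik5 held 85.6% of the family in normal lung and 77.2% in tumor.

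NMDA receptors need the obligatory subunit Grin1 together with Grin2 or Grin3 subunits, and 5 of the 7 genes were called higher. That is 71.4%, with 0 called lower, beside 24.0% and 24.5% of all genes tested. Grin1 stood at 9.03, 6.45, 9.69, 9.87 and 16.1 in normal lungs 1 to 5 and ran from 288 to 1636 with a median of 724 in tumor (log2 fold change 6.15, SE 0.39, adjusted p = 2.32e-08). Grin2b, a subunit typical of developing brain, was at 2.58, 2.15, 0, 0 and 2.30 in normal lung and 14.6, 1204, 1730.05, 2099, 1568, 1011 and 567 in tumors 1 to 7. Tumor 1 had a small fraction of the level of the other 6 tumors and still lay above every normal lung (log2 fold change 8.35, SE 1.03, adjusted p = 1.22e-05, and 9.25 without tumor 1). Grin2d was the leading NMDA gene of normal lung, at 178, 88.2, 142, 88.9 and 233 in normal lungs 1 to 5, and rose to 422 to 1787 with a median of 888 in tumor (log2 fold change 2.62, SE 0.34, adjusted p = 1.72e-05).

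Grin3a, a subunit that binds glycine, also rose with groups apart, from 55.9 to 551 in the mean. Grin3b was called higher with overlapping groups (7.53 to 34.5 and 15.9 to 187.03), a call lost with the Y-linked covariate (adjusted p = 0.151), without normal lung 2 (0.0722), without normal lung 4 (0.0689) and without the trachea-titled tumors (0.05105). Grin2a was at 4.85 to 20.7 and 7.93 to 92.9 and was not called with all samples, but was called higher without tumor 3 (1.47, adjusted p = 0.0178), by edgeR (1.65, adjusted p = 0.0127) and DESeq2, with equal totals (adjusted p = 0.0442) and with averaged title numbers (0.0458). Grin2c was not called either, at 19.7 to 58.6 and 0.809 to 54.8. Per kb, Grin1 made up 2.62% of the NMDA family in normal lung and 25.3% in tumor, and Grin2c 19.0% and 1.83%.

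Metabotropic glutamate receptors fall into group I, which couples to phospholipase C and includes Grm5, and groups II (Grm2 and Grm3) and III (Grm4, Grm6, Grm7 and Grm8), which lower cyclic AMP. Both group II genes rose. Grm2 was listed at 0 in all 5 normal lungs and at 332, 245, 1269, 582, 668, 259 and 184 in tumors 1 to 7, a mean at least 104-fold above the floor of 3 reads in the shallowest normal lung (log2 fold change 8.68, adjusted p = 3.93e-09). Even the lowest tumor was at least 37.9-fold above that floor. Grm3 rose from 7.21 to 319 in the mean with groups apart (log2 fold change 5.19, adjusted p = 1.77e-07). Per kb, Grm3 and Grm2 made up 41.6% and 39.7% of the family in tumor.

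Grm4 led the family in normal lung, with 60.3% of its level per kb. It was at 193, 147, 40.4, 95.9 and 43.7 in normal lungs 1 to 5 and at 130.4, 35.7, 14.9, 15.3, 23.5, 24.9 and 64.7 in tumors 1 to 7, with tumors 1 and 7 inside the normal range and the other 5 below it. It was not called (log2 fold change -1.37, SE 0.58, adjusted p = 0.0535), but was called lower without normal lung 3 (-1.64), normal lung 5 (-1.61), tumor 1 (-1.69) or tumor 7 (-1.53), with adjusted p from 0.0112 to 0.0393. Without both trachea-titled tumors, which are tumors 1 and 7, it was called lower at -1.95 (adjusted p = 0.00324). Grm7 was called higher, at 0 to 1.29 in normal lung and at 20.9, 70.3, 1.98, 3.59, 27.5, 108 and 799 in tumors 1 to 7. Tumor 7 was well above the rest, and tumor 3 was at or under 3 reads. Its log2 fold change of 4.64 became 3.88 without tumor 7 and 5.23 without tumor 3. Grm8 was also highest in tumor 7, at 209 against at most 25.6 in the others, as was the nicotinic gene Chrna4 (379.8). Grm5, Grm6 and Grm8 were not called, and Grm6 was called lower without normal lung 4, tumor 2 or tumor 7 (adjusted p 0.0449 to 0.0471).

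Nicotinic receptors are cation channels, and of the 15 genes 7 were called higher, 4 lower and 3 not, and Chrnb3 was not tested. The higher share was 46.7%, beside 24.0% of all genes tested. The lower share of 26.7% was near the 24.5% of all genes tested. Chrnb2, a beta subunit of the main brain receptor, was at 45.1, 50.5, 30.7, 39.5 and 41.4 in normal lungs 1 to 5 and ran from 789 to 2081 with a median of 1542 in tumor. No normal lung came near a tumor, and the log2 fold change was 5.14 (SE 0.23, adjusted p = 1.42e-09). Its usual partner Chrna4 rose from 5.05 to 112 in the mean, with a median of 70.9 and the highest value in tumor 7.

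The genes of the Chrna5, Chrna3 and Chrnb4 cluster, a locus linked to smoking behaviour and lung cancer risk in people, were all called higher. Chrna5 was at 0, 0, 0, 1.41 and 0 in normal lungs 1 to 5, which is 1 read in all, and ran from 54.8 to 122 with a median of 68.5 in tumor (log2 fold change 6.04, SE 0.36, adjusted p = 1.21e-08). The ratio of pooled reads was 319, with a 95% exact interval of 57 to 12634 that covers counting error only, and 310 (55 to 12272) without tumor 3, whose recovered reads did not pass an independent check. Chrna3 was at 2.58, 1.08, 1.62, 0 and 0 and ran from 39.3 to 193 with a median of 121 (log2 fold change 6.004, SE 0.46, adjusted p = 1.43e-07). Both were above every normal lung in all 7 tumors. Chrnb4 was already present in normal lung (5.75 to 18.3) and overlapped with tumor (8.34 to 108). Its call (log2 fold change 1.48, adjusted p = 0.0295) was lost without normal lung 1 or 5, tumor 1, 3 or 4 or the trachea-titled tumors, and with averaged title numbers (adjusted p 0.0506 to 0.0803).

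Among muscle-type subunits the directions differed. Chrnd, the delta subunit of the neuromuscular junction, was at 0, 0, 1.62, 0 and 0 in normal lungs 1 to 5, which is 1 read in all, and at 1365, 313, 207, 423, 243, 115.9 and 39.7 in tumors 1 to 7 (log2 fold change 7.62, SE 0.69, adjusted p = 6.32e-07). Tumor 1 was the highest and tumor 7 the lowest, and the ratio of pooled reads was 1608, with a 95% exact interval of 288 to 63521 for counting error only, and 1711 (307 to 67596) without tumor 3. The 7 skeletal muscle markers measured summed to 19.6 in tumor 1, with Myh1, Myh2 and Tnni2 at 0 there, and were highest among tumors in tumor 2 (1387). Their part in the level of Chrnd was not tested. The neighbouring gamma subunit gene Chrng was at 0 to 3.23 and 0 to 32.3 and was called higher. Chrnb1, the muscle beta subunit, was the leading nicotinic gene of normal lung at 927, 821, 712, 767 and 906 and fell to 67.1, 158, 61.5, 54.8, 89.0, 82.2 and 168 in tumors 1 to 7. The groups were far apart (log2 fold change -3.19, SE 0.29, adjusted p = 6.36e-07). Chrne, the adult epsilon subunit, was not called (log2 fold change 0.19, 95% interval -0.64 to 1.02).

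Chrna9, an alpha subunit that forms receptors in the inner ear and in epithelia, was at 41.3, 23.7, 43.6, 25.4 and 25.3 in normal lungs 1 to 5 and at 7.597, 1.19, 4.96, 9.88, 4.85, 11.5 and 15.4 in tumors 1 to 7, with groups apart (log2 fold change -2.06, SE 0.47, adjusted p = 0.0019). Chrna7, whose product forms channels by itself, was called lower with overlap at 16.1 to 43.8 and 0.633 to 30.7, but not with equal totals, quantile normalization, no filter, a pseudocount of 0.1, edgeR or DESeq2, nor without normal lung 1, 3, 4 or 5, tumor 1, 3 or 4 or the trachea-titled tumors (adjusted p 0.0502 to 0.213). Chrna1, the muscle alpha subunit, was called lower as well (13.98 to 31.0 and 1.27 to 21.8), but not with equal totals, quantile normalization or edgeR, nor without normal lung 1, 3, 4 or 5, tumor 2 or the trachea-titled tumors (adjusted p 0.0522 to 0.0750). Chrna10 was not called, nor was Chrna2, except without the trachea-titled tumors (-1.36, adjusted p = 0.0421). Per kb, Chrnb1 held 88.7% of the nicotinic family in normal lung and 9.99% in tumor, where Chrnb2 held 42.8% and Chrnd 22.1%. The share of Chrnd ran from 3.76% to 51.1% among tumors.

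Muscarinic receptors had 1 of 5 genes called higher and 0 lower. Chrm4, which couples to inhibitory G proteins, was at 2.58, 2.15, 4.85, 1.41 and 0 in normal lungs 1 to 5 and ran from 32.2 to 142 with a median of 101 in tumor, with all tumors above all normal lungs (log2 fold change 5.06, SE 0.49, adjusted p = 1.25e-06). Chrm2 and Chrm3, the receptors of airway and heart muscle, led the family in normal lung. Chrm2 was at 340, 374, 329, 258 and 516 in normal lungs 1 to 5 and at 334, 36.9, 643, 862, 1207, 313 and 1226 in tumors 1 to 7, and Chrm3 at 424, 407, 339, 310.3 and 340.3 and 113, 11.9, 118, 459, 556, 329 and 254. Neither was called, with log2 fold changes of 0.31 (95% interval -1.20 to 1.83, with the sign turning when tumors of 1 title number were averaged) and -1.11 (-2.70 to 0.48), and tumor 2 was the lowest for both. Summed smooth muscle and pericyte markers were 8439 to 14227 in normal lung and 3227 to 16918 in tumor, and cardiac markers summed to 39437 in tumor 7 and to 453 to 2797 in the other tumors. Chrm2 was at 1207 in tumor 5, with a cardiac sum of 887, and at 1226 in tumor 7. The part of these markers in the levels of Chrm2 and Chrm3 was not tested. Chrm1 was not called. Per kb, Chrm4 held 1.28% of the family in normal lung and 37.6% in tumor.

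Several receptor genes lie beside each other, and some neighbours differed in call or level. On chromosome 4, Gabrr2 and Gabrr1 are neighbours, and their means were 19.3 and 1.33 in normal lung and 17.5 and 23.9 in tumor, with Gabrr1 called higher and Gabrr2 not. On chromosome 3, Gria2 and Glrb are neighbours and both were called higher, with all 7 tumors above the normal lungs, at 194 and 101 per kb in the tumor mean. Chrnd and Chrng, on chromosome 1, were at 118 and 2.997 per kb. On the X chromosome Gabrq was called higher while its neighbour Gabra3 was not. In the annotation 15 members overlap another gene, 8 of them a protein-coding gene, including Gabra5, Grin2d, Chrnb2, Grin3b and Gabra4. Since no source says whether counting used the strand, reads in such a shared span cannot be assigned with certainty.

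**Figure D4:**
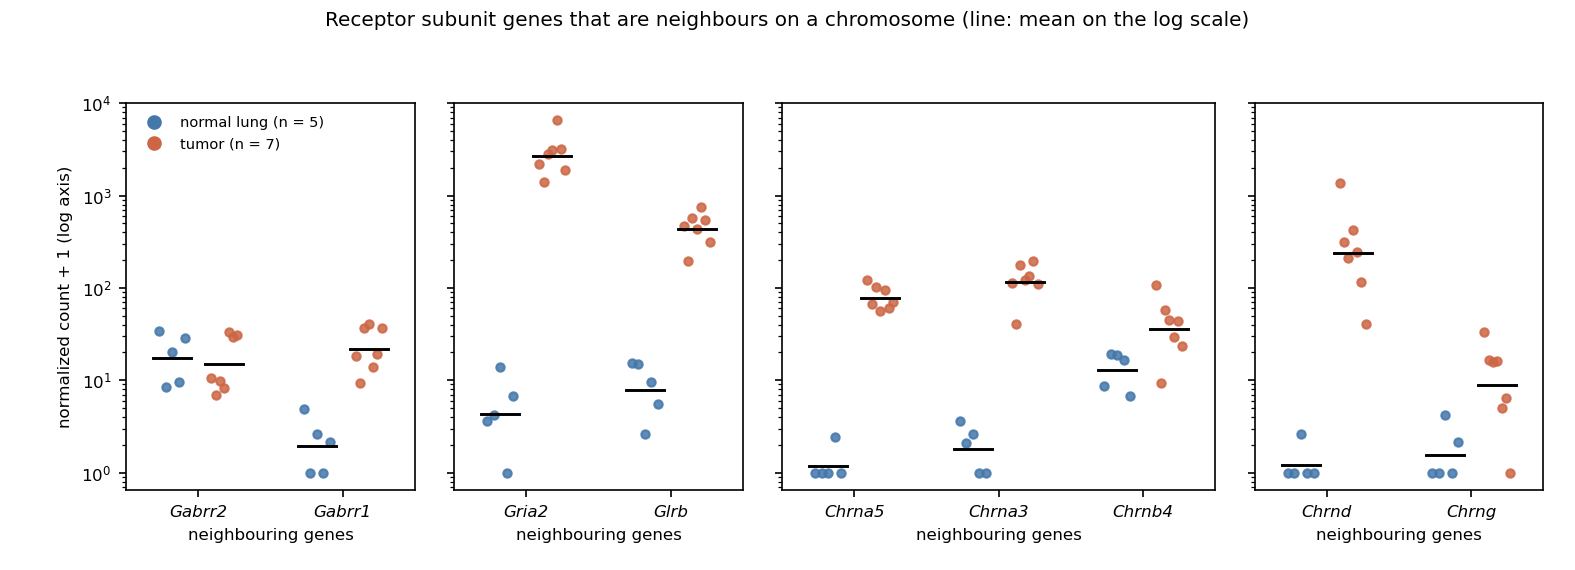
Each point is 1 sample (blue, 5 normal lungs; orange, 7 tumors), the vertical axis is the normalized count + 1 on a log axis, and lines give the mean on the log scale for 4 groups of neighbouring genes. Gria2 and Glrb stand at 1385 or more and 195 or more in every tumor, while Chrng stays at 32.3 or less beside Chrnd, which reaches 1365.

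Genes that make, load, clear or anchor these transmitters and receptors were counted from 4 lists. Of 71 listed genes, 70 were in the table and 68 tested, of which 41 were called higher, 6 lower and 21 not, beside 24.0% higher and 24.5% lower over all genes. The GABA list had 13 of 17 tested genes higher and 1 lower, the glutamate list 21 of 36 higher and 4 lower, and the acetylcholine list 6 of 14 higher and 1 lower. Cacng2 and Cacng4 encode auxiliary subunits that carry AMPA receptors to the membrane. Cacng2 was at 0 in all normal lungs and at 774 to 2021 in tumor, and Cacng4 went from 5.44 ± 2.39 (SD, n = 5) to 2613 ± 644 (SD, n = 7), with log2 fold changes of 10.25 and 8.70 (adjusted p = 8.65e-11 for both). Ly6h, a membrane protein that restrains nicotinic receptors, rose from 2.81 to 2682 in the mean (log2 fold change 9.63, adjusted p = 3.28e-09), and Lhfpl4, which places GABA-A receptors at synapses, from 129 to 2465 (4.21, adjusted p = 6.23e-08). Among the genes called lower were the postsynaptic scaffold Shank3 (-2.11, adjusted p = 7.68e-05) and the glutamate transporter Slc1a1 (-2.92, adjusted p = 5.87e-06). Lypd6b, a relative of Ly6h that also acts on nicotinic receptors, was the acetylcholine gene called lower, from 179 to 19.9 in the mean with groups apart (-3.34, adjusted p = 1.52e-05).

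The genes of transmitter synthesis and vesicle loading differed in level and in their spread over tumors. Gad1, which makes GABA, was at 28.4, 46.2, 6.46, 11.3 and 13.8 in normal lungs 1 to 5 and reached 566, 155, 936, 989, 912, 323 and 159 in tumors 1 to 7 (log2 fold change 4.65, adjusted p = 1.61e-05), while Gad2 was at most 5.76 in any sample and was not tested. Slc32a1, which loads GABA and glycine into vesicles, was called higher and reached 43.6 in tumor 7 and was at 0 in tumor 1. Slc6a5, the glycine transporter of glycinergic neurons, split the tumors, at 11.4, 25.0, 5741, 5778, 12099, 4899.7 and 1663 in tumors 1 to 7 against at most 1.62 in normal lung (log2 fold change 9.46, adjusted p = 0.000202). Tumors 1 and 2 were far below the other 5. Of the vesicular glutamate transporters, Slc17a6 and Slc17a8 were called higher with tumor means of 27.0 and 43.3, both led by tumor 7, and Slc17a7 was not called. Chat, which makes acetylcholine, was at 8.86, 82.2, 65.4, 72.7, 34.0, 67.4 and 19.2 in tumors 1 to 7 and at 0 in 4 of 5 normal lungs (log2 fold change 5.01, adjusted p = 6.44e-06). Slc18a3 was not analysed here.

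Receptor genes also set the tumors apart from each other. Among genes with a mean log2 value of at least 4 over the 12 samples, the SD of log2 values over the 7 tumors had a median of 1.05 for 42 receptor genes and 0.50 for all 16518 such genes. These sets share only that lower limit and were not matched for level, so the part of level in this difference was not tested. The 5 receptor genes with the largest spread were Gabra4, Gria4, Grm7, Grik2 and Grin2b, with SDs of 2.47 to 3.20. Tumor 1 was the lowest tumor for 4 of these 5, and Grm7 was lowest in tumor 3. Over the 36 genes called higher, the lowest value fell in tumor 1 for 11 genes, in tumor 2 for 12 and in tumor 7 for 8, leaving 3, 1, 1 and 0 for tumors 3 to 6, with a tie counted for the tumor of lower number. The highest value fell most often in tumor 5, for 9 genes, and in tumor 1 for 7. Tumor 1 led in Gria3 (2799) and Chrnd (1365), while tumor 2 was lowest in Gria3, Chrm2, Chrm3 and Chrna3 and led in Grik2 (1720.2), Grin1 (1636) and Grin2d (1787). Tumors that share title number 159 (3 and 4) or 201 (5, 6 and 7) were not always alike, as Grik3 at 671, 4064 and 1029.8 and Grik2 at 705 and 255 show. Marker sums differed among the tumors too. The neuroendocrine sum was lowest in tumor 7 (33230) and tumor 2 (52191) and 65181 to 130171 in the others, and tumor 7 also had the highest leukocyte (12633) and cardiac sums. The tumors form 1 labelled group, so neither these differences nor the part of the marker sums in them was tested.

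**Figure D5:**
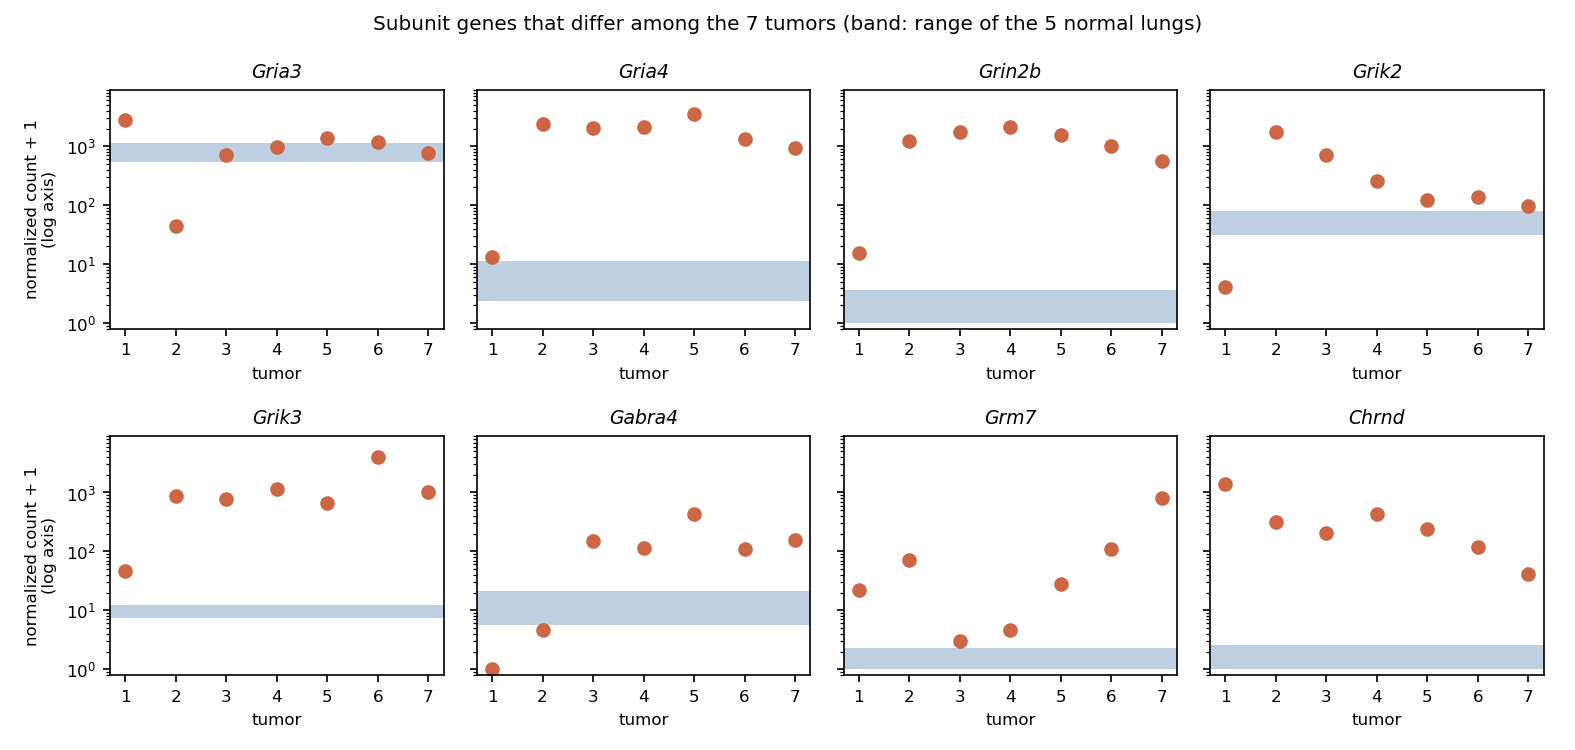
Points give the normalized count + 1 of 8 receptor genes in tumors 1 to 7 on a log axis, and the band gives the range of the 5 normal lungs. Gria3, Gria4, Grin2b, Grik3 and Chrnd follow the rule for named genes, and Grik2, Gabra4 and Grm7 were added after their values were seen; Gria4, Grin2b, Grik2, Grik3 and Gabra4 are lowest in tumor 1, and Chrnd is highest there.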

How the data were processed

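Poly-A RNA of 5 normal lungs and 7 tumors was sequenced as paired ends. The table deposited by the authors holds a normalized count signal, made with featureCounts and DESeq2 on GRCm39 per the submitters' processing notes. The aligner, annotation, strand setting and versions are not given in the sources used here. In every column the values were whole multiples of the worth of 1 read within 0.001, which gives the depth, 11126432 to 24217633 reads. The 25 same-group pairs compared all differed beyond sampling noise (chi-square per degree of freedom at least 18.42). Because counts were already normalized, limma 3.58.1 (R 4.3.3, lmFit, then eBayes with trend) was run on log2(value + 1) in place of a count test, for genes with a mean of at least 1, without covariates. edgeR 4.0.16 and DESeq2 1.42.0 on recovered reads of 11 samples were alternatives, tumor 3 being left out because its recovery did not pass an independent check. The scripts were tested on simulated data. Symbols, exon lengths, gene order and overlaps came from GENCODE M21 (29982 of 30399 identifiers named), and promoter letters from RefSeq on GRCm38.p6. No coordinates are given for the table's genes, since its build differs.

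The members, lists and tests were chosen with earlier results of these data known. Values in every sample, or for tumors also the range and median, are given for the called member of each family with the largest change in each direction whose groups do not overlap and whose higher mean is at least 10, for the 10 largest such changes in each direction, and for the highest member of each family in each tissue. Members outside this rule are given to account for their family, and those named for their spread were chosen after their values were seen. Some members and 1 marker gene that meet these rules are not reported here, and figures leave them out. Of the pathway lists, up to 2 of the largest such changes per list and direction and the synthesis and vesicle transporter genes are named. Glial markers summed to 2156 to 2910 in normal lung and 2087 to 5707 in tumor. Alternatives covered scaling, filters, the pseudocount, title numbers, trachea-titled tumors, Y-linked expression, the test and each sample left out in turn.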

Additional observations from a re-analysis of the deposited data

Results flagged for a closer look

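For the named receptor genes, the highest or lowest sample of a group was compared with its neighbours by Dixon's ratio on log2(value + 1). Of 49 groups checked, 9 held a sample that stood apart at the 95% critical value, where chance flags about 1 in 20 groups, or 2.45 here. Tumor 1 stood apart as the lowest tumor for Gria4 (3.70 on the log2 scale), Grin2b (3.96) and Grik3 (5.52). Tumor 2 stood apart as the lowest for Gria3 (5.46), Chrm2 (5.25), Chrm3 (3.69) and Chrna3 (5.33). Among normal lungs, normal lung 4 stood apart for Chrna5 (1.27) and normal lung 3 for Chrnd (1.39), in each case 1 read where the other normal lungs had 0. The ratio is then at its maximum by construction and a single read is below the floor of 3, so these 2 say nothing of a difference, and without them 7 of 47 groups remain, against 2.35 by chance. Tumor 1 is 1 of the 2 tumors with a word for trachea in the title, and tumor 2 has the fewest reads of the tumors (13093843). The part of either in these values was not tested.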

How the results depend on the processing

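Receptor genes called higher ranged from 29 (Y-linked expression as a covariate) to 39 (DESeq2) around the main 36, and from 34 to 37 when 1 sample was left out. Those called lower were 4 in place of 7 with quantile normalization, equal totals and edgeR with or without a filter, and 5 to 9 with 1 sample left out, 9 without tumor 7. Other pathway genes called lower were 10 in place of 6 with tumors of 1 title number averaged and 3 with edgeR, with or without a filter, and with DESeq2. edgeR with TMM factors called 3758 of all genes lower in place of 5805. Equal totals moved the median log2 fold change of all genes from 0.04 to 0.24, edgeR with TMM factors to 0.14 and edgeR without a filter to 0.30. The cause of these differences was not tested. Gria3 (0.05 in the main fit) reversed to -0.26 with averaged title numbers, -0.083 with title numbers as a correlated block, -0.35 without the trachea-titled tumors, and ran from -0.27 (without tumor 1) to 0.73 (without tumor 2) with 1 sample left out, below 0 in 6 of those 12 fits. Chrm2 reversed to -0.22 with averaged title numbers. For the 25 genes that meet the rule for per-sample values, 581 of 600 comparisons kept direction and side of the threshold, 5 gained a call (Grm4) and 4 lost one (Gabrr3). Over all tested receptor genes, 12 lost a call under at least 1 setting, most often Chrna7 and Gabrb2, and 6 gained one. Leaving tumor 3 out of the pooled ratios, an alternative chosen after seeing the data, kept them within their intervals. No paired analysis was possible because the labels give the 2 tissues no shared replicate numbers. Genes at or under 3 reads cannot be ranked at this depth.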
